A study of Mus musculus with 19 samples.

Results

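Gene expression was compared between xenograft tumours given osimertinib together with 6-thio-dG (the combination from here on) and xenograft tumours given 6-thio-dG alone (thio from here on), so that the difference is the addition of osimertinib under 6-thio-dG. The comparison used the 9 libraries whose column names and treatment labels place them in these groups, 5 combination and 4 thio, out of 19 in the series. All 19 came from tumours of the human lung adenocarcinoma line HCC827, which carries an activating EGFR mutation, grown in NCG mice, a strain that lacks T, B and NK cells. The other libraries were 5 given osimertinib alone and 5 given DMSO, the vehicle (control). The tumours model 1 cell line. The sources used here give no dose, schedule, time of collection or age of the mice. The labels name the mouse as organism, whereas the counted genes carry human symbols on hg38, and whether and how mouse reads were set aside is not given. Each library title carries a number of its own, and the labels do not say whether that number stands for an animal, so a p-value here measures only how far these samples spread, which may in part be technical.

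EGFR is a receptor tyrosine kinase that binds ligands such as TGFA and AREG and signals through RAS to the ERK kinases and through PI3K. Osimertinib binds covalently in the kinase pocket of mutated EGFR. Many genes that ERK induces, such as DUSP6, encode proteins that damp the same pathway and serve as readouts of its output. 6-thio-dG is a modified guanine nucleoside, which telomerase adds to telomeres, the repeat ends of chromosomes, where it disturbs their protein cap.

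Total counts ran from 17731752 to 27450535 in combination libraries and from 25322580 to 34664918 in thio libraries. Transcripts of the mitochondrial genome took 11.0%, 17.8%, 20.9%, 13.2% and 30.2% of the counts in combination libraries 1 to 5, against 6.21%, 7.86%, 5.27% and 6.46% in thio libraries 1 to 4. All combination libraries lay above all thio libraries, and the means were 18.6% ± 7.54 (SD, n = 5) and 6.45% ± 1.07 (n = 4), a difference of 12.2 percentage points (2-sided exact permutation test over all regroupings of the 9 libraries, p = 0.0238). Combination 3, combination 5 and thio 3 had been singled out earlier by mitochondrial counts and by counts in olfactory receptor genes. The 271 olfactory receptor genes summed to 33.4 CPM (counts scaled by the TMM-adjusted library size) in combination 3, 44.0 CPM in combination 5 and 25.6 CPM in thio 3, against 11.2 to 23.2 CPM in the other combination libraries and 8.32 to 12.4 CPM in the other thio libraries. Results below are therefore also given without these 3 libraries (written as without the 3 libraries) where a named gene lost its call or a list's count moved by over 1.5 times. Without them the difference in mitochondrial share was 7.16 percentage points (exact permutation p = 0.1, the smallest that 3 against 3 libraries allow). Combination 3 and combination 5 had the highest combination shares and thio 3 the lowest thio share, so leaving them out was bound to narrow the difference. The 12 epithelial markers were all detected in all 9 libraries and summed to 14600 to 22500 CPM in combination libraries and to 13900 to 20600 CPM in thio libraries. Fibroblast markers summed to 439 to 905 CPM in combination and 345 to 483 CPM in thio libraries. Endothelial markers summed to 23.9 to 33.6 CPM in combination and 24.2 to 38.4 CPM in thio libraries, and macrophage markers to 10.4 to 15.1 CPM in combination and 10.5 to 15.2 CPM in thio libraries. Lymphocyte markers reached at most 3.08 CPM in combination and 1.94 CPM in thio libraries, and erythroid markers, among which HBG2 was at 0 in all 9 libraries, at most 1.26 CPM in combination and 1.02 CPM in thio libraries. Adipocyte markers summed to 32.0 to 37.4 CPM in combination and 28.5 to 29.7 CPM in thio libraries. Skeletal muscle markers summed to 178 to 896 CPM in combination libraries and 137 to 223 CPM in thio libraries. The share that these cells have in any difference was not tested. In bulk tumour RNA, fewer cells of a type and less RNA per cell cannot be told apart.

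Adding osimertinib under 6-thio-dG went with a difference in a large part of the transcriptome. Of 16704 genes tested, 3549 (21.2%) were higher and 3829 (22.9%) were lower in the combination than in thio, so that 44.2% were called in either direction (edgeR quasi-likelihood test, Benjamini-Hochberg adjusted p under 0.05). The groups did not overlap in 16.2% of the genes with the combination higher and in 16.8% with the combination lower. A change of at least 2-fold was found in 1632 higher and 1028 lower genes, and the median size of a called change was 0.80 on the log2 scale. The median over all genes was 0.03. With upper-quartile scaling that median moved up by 0.18 and higher genes made up 65.5% of its calls, compared with 48.1% under TMM. Without combination 3, combination 5 and thio 3 the test called 1546 higher and 1765 lower genes, and 3267 of the 7378 calls were made in both fits in the same direction. With the mitochondrial percent as a covariate 191 genes were called. The mitochondrial share did not overlap between the groups, so what goes with the share and what goes with the treatment cannot be told apart.

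**Figure D1:**
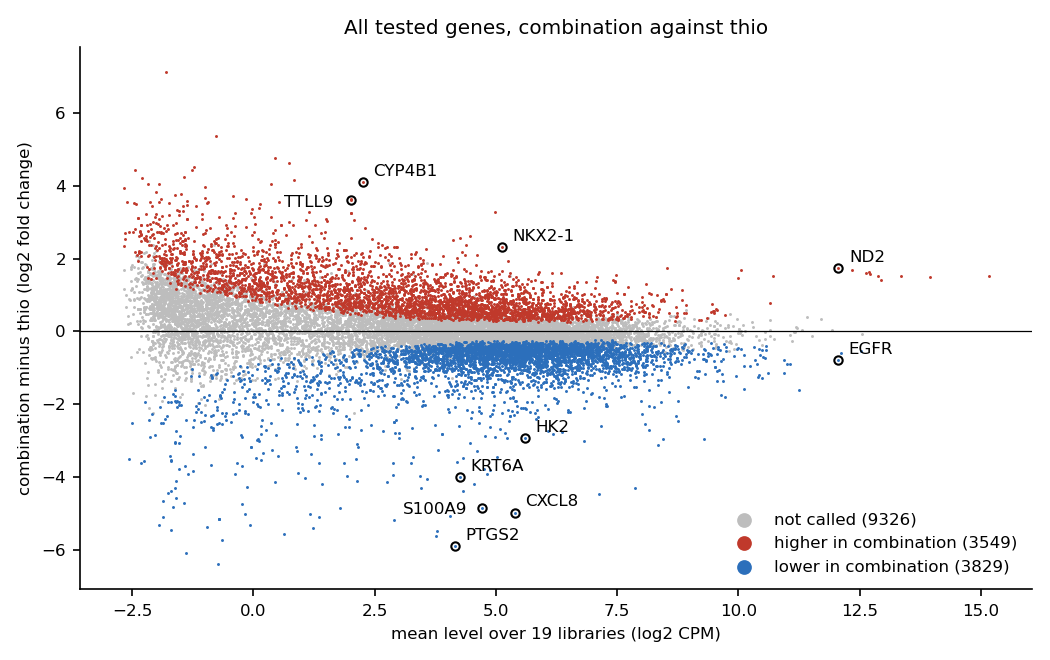
Log2 fold change of the combination over thio (vertical axis) against mean log2 CPM over all 19 libraries (horizontal axis) for the 16704 tested genes. Genes called higher and genes called lower in the combination are coloured, and called genes of low level lie mostly above 0. The circled genes include PTGS2 at -5.89 and TTLL9 at 3.60.

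The direction of the calls changed with the level of the gene. Among genes with a mean log2 CPM of at most 0, 19.5% were higher and 4.87% lower in the combination, with a median log2 fold change of 0.68. Above a mean log2 CPM of 6 the shares were 13.0% higher and 39.5% lower, with a median of -0.24. Noncoding classes of low level leaned higher too, with median levels of -0.41 (intergenic) and 0.29 (antisense) on the log2 CPM scale. Of 340 numbered intergenic noncoding RNAs 107 were higher and 15 lower (31.5% and 4.41%), against 19.5% and 4.87% of all genes at a level of at most 0. Of 494 antisense transcripts 190 were higher and 16 lower (38.5% and 3.24%). Among all genes with a mean log2 CPM above 0 and up to 2 the shares were 33.8% and 10.9%, so the higher share of antisense transcripts was not far from that of their level. Zinc finger genes of the ZNF series, which encode DNA-binding repressors in large part, were higher in 179 and lower in 58 of 508 (35.2% and 11.4%). Their median level was higher, at a log2 CPM of 3.58. Among all genes with a mean log2 CPM above 2 and up to 4, 27.2% were higher and 18.7% lower. Translation initiation factors of the EIF series went the other way, with 4 higher and 25 lower of 65 (6.15% and 38.5%). Their median log2 CPM was 6.06, and their lower share was near the 39.5% of all genes above a level of 6. The library kit does not mark strand, so reads of an antisense transcript and of its partner gene cannot be told apart.

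Gene lists written from general knowledge of the pathways concerned showed where the calls gathered. Inflammatory cytokines, glycolysis and hypoxia genes were lower in at least 90% of their tested members, and the genes of the mitochondrial genome and of motile cilia were higher in 13 of 13 and 13 of 17. DNA repair genes were close to the background of all genes, with 8 of 29 lower and 5 higher, and cytosolic ribosomal proteins (6 of 38 lower) and mitosis genes (4 of 28 higher) had fewer calls than it. With the mitochondrial percent as a covariate edgeR called 6 inflammatory and 6 cilium genes, 3 cytochrome P450 genes, 2 each of the squamous, S100 and autophagy lists and 1 each of the complement, hypoxia, glycolysis, p53, purine and unfolded protein lists. All calls in the other pathway lists were lost in that fit, cholesterol synthesis, the ATF4 programme, interferon response and TCA cycle among them, while 2822 of all genes had an unadjusted p under 0.05. The mitochondrial genome list lost its calls as well, but the covariate is the summed share of those same genes, so that loss was built in. Each list is described in turn with its median log2 fold change, which is to be read against 0.03 over all genes.

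**Figure D2:**
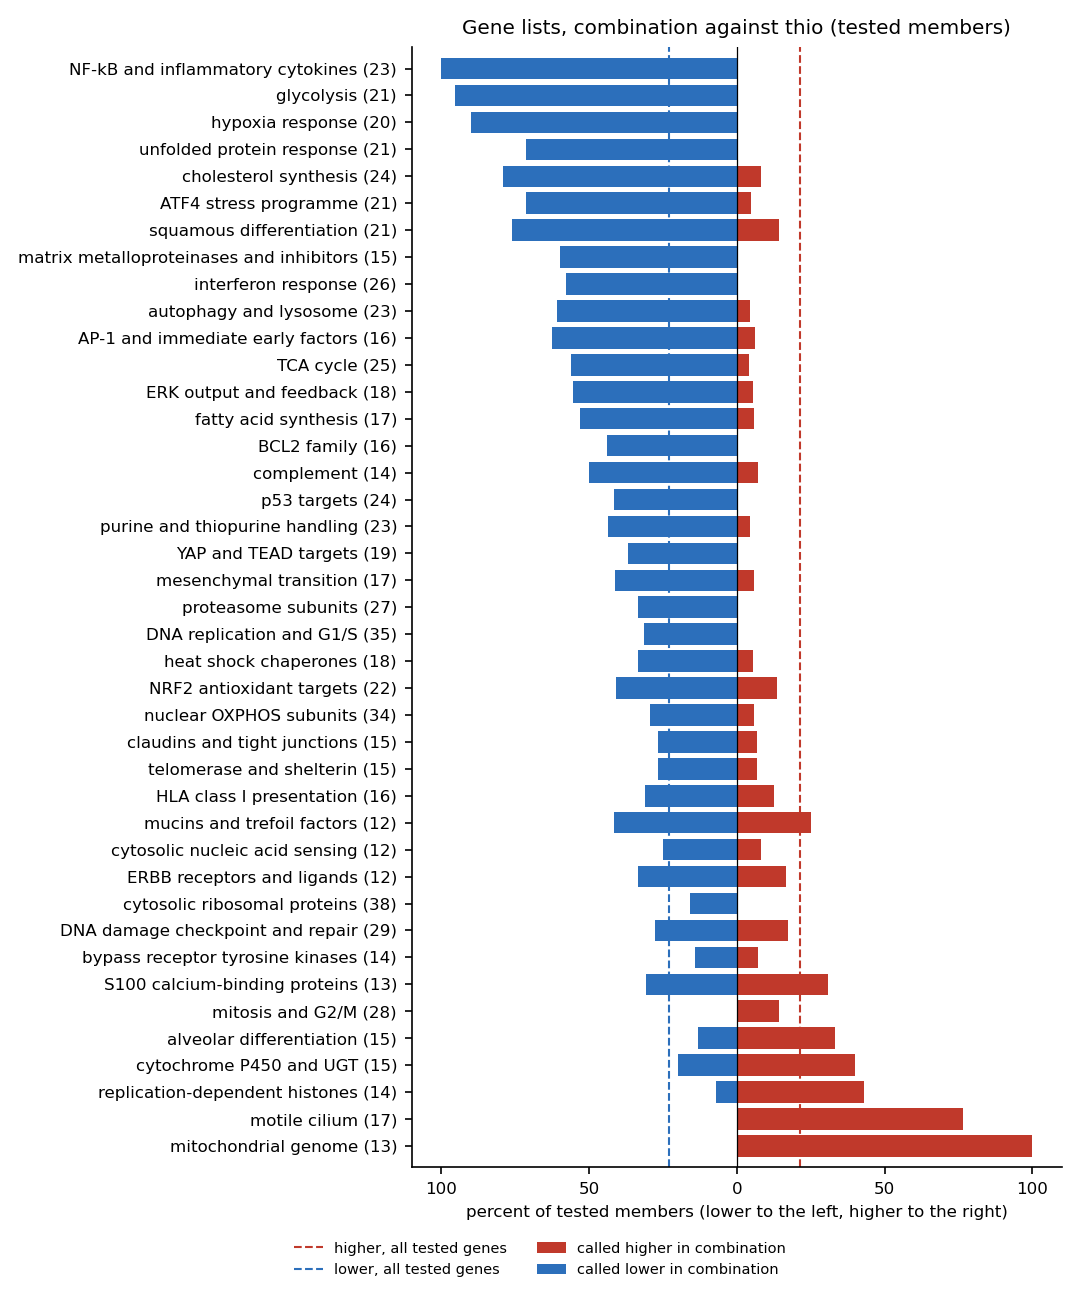
Percent of the tested members of each gene list (number tested in parentheses) called lower (bars to the left) or higher (bars to the right) in the combination than in thio. The dashed lines mark the same shares over all tested genes, 22.9% lower and 21.2% higher, and the inflammatory cytokine list reaches 100% lower while the mitochondrial genome reaches 100% higher.

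Inflammatory cytokines and other targets of NF-kB fell as a group. NF-kB is the transcription factor family that switches on chemokines and cytokines, and all 23 tested members of the list were lower in the combination, with a median log2 fold change of -3.16. Without the 3 libraries 19 of the 23 were called lower, and with the mitochondrial percent as a covariate 6 were. CXCL8, a chemokine that attracts neutrophils, had 25.2, 22.1, 8.55, 17.5 and 16.6 CPM in combination libraries, against 541, 56.5, 1470 and 197 CPM in thio libraries. The groups did not overlap, and within thio the values spread widely, with thio 3 highest and thio 2 lowest. The log2 fold change of CXCL8 was -4.98 ± 0.65 (SE of the fit, 5 and 4 libraries, here and below, adjusted p = 3.82e-05), or -3.90 without thio 3. The chemokine CXCL1 had 84.5, 59.2, 43.2, 56 and 59.8 CPM in combination and 1430, 209, 3090 and 624 CPM in thio libraries (-4.47 ± 0.53, adjusted p = 2.14e-05). Reads of CXCL1 may be shared with its near-identical neighbours CXCL2 and CXCL3, so its level is uncertain. CXCL5, a related chemokine, was lower by 4.29 on the log2 scale (adjusted p = 1.79e-05), and CCL20, which attracts dendritic cells and lymphocytes, had 1.23 to 4.77 CPM in combination libraries, against 13.3 to 245 CPM in thio libraries.

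The interleukin-1 cytokines had the same order among the thio libraries as CXCL8. IL1A, an alarm cytokine that epithelial cells release on damage, had 8.37, 9.07, 2.58, 5.5 and 8.61 CPM in combination libraries, against 235, 24.9, 562 and 97.2 CPM in thio libraries (-5.08 ± 0.66, adjusted p = 3.82e-05). IL1B, its secreted relative, had 13.2, 10.3, 6.56, 9.45 and 7.86 CPM in combination and 174, 27.3, 410 and 80.1 CPM in thio libraries (-4.18 ± 0.51, adjusted p = 3.02e-05). In both genes thio 2 was the lowest and thio 3 the highest thio library, and no combination library reached thio 2. PTGS2, the inducible cyclooxygenase of prostaglandin synthesis, had the largest fall of the genes named here: 9.15, 9.36, 3.06, 8.96 and 13.1 CPM in combination libraries, against 489, 31.6, 1420 and 128 CPM in thio libraries. That is 59.4-fold lower in the combination (log2 fold change -5.89 ± 0.81, adjusted p = 4.87e-05), or -4.66 on the log2 scale without thio 3. The mean log2 CPM of the whole list was 4.44, 4.26, 3.64, 3.83 and 4.23 in combination libraries 1 to 5, against 7.40, 5.19, 8.48 and 6.07 in thio libraries 1 to 4. The list thus varied over a much wider range among the thio libraries than among the combination libraries.

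**Figure D3:**
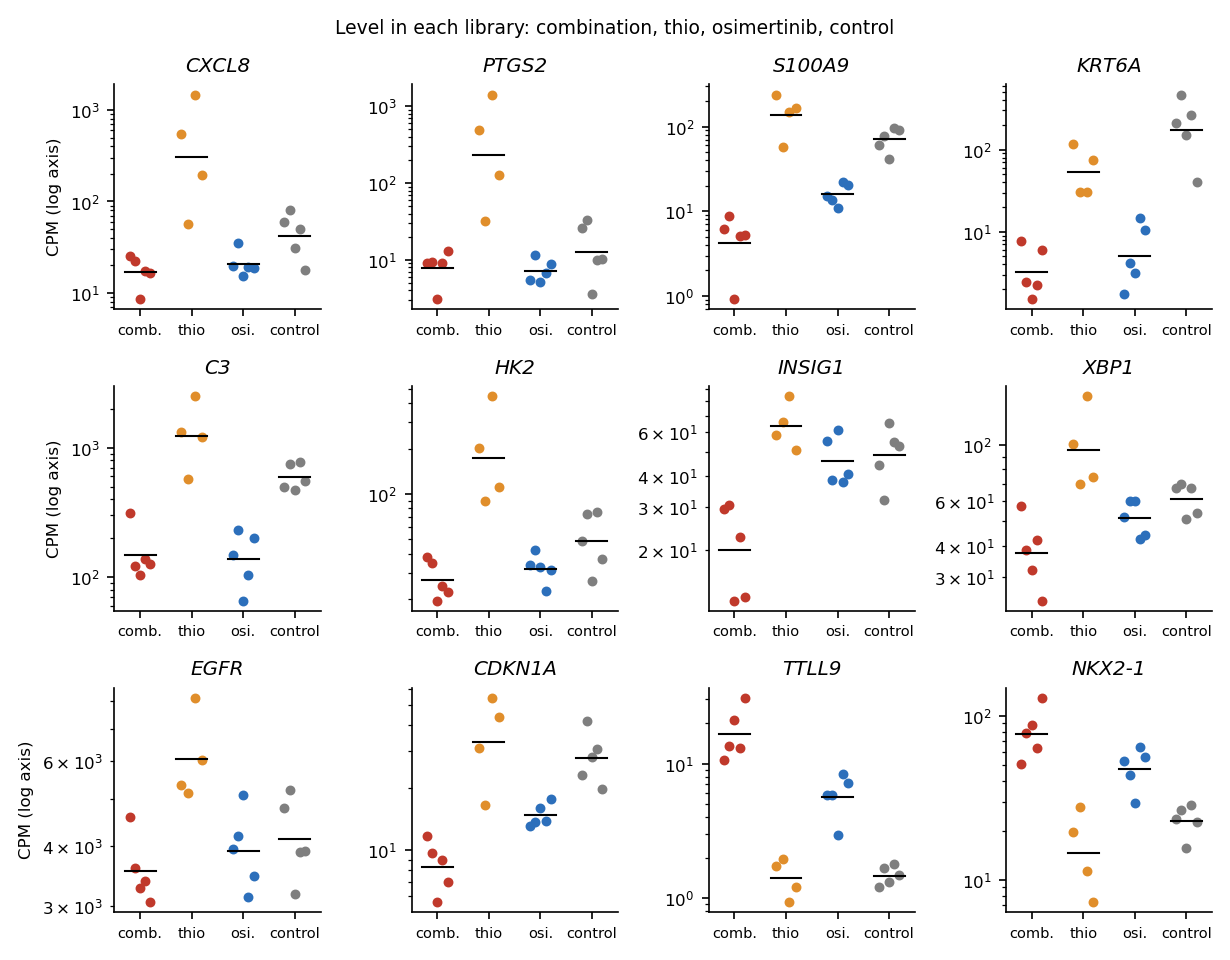
CPM on a log axis of selected genes in each library, combination, thio, osimertinib and control from left to right. Each point is 1 library and the bar is the group mean of log2 CPM. CXCL8 lies between 8.55 and 25.2 CPM in combination libraries and between 56.5 and 1470 CPM in thio libraries.

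Interferon, antigen presentation and complement genes were lower in part. Of 26 tested interferon response genes 15 fell and 11 were not called, with a median of -0.85, and without the 3 libraries 4 were called lower. OASL, an antiviral protein of the 2-5A synthetase family, had 4.34, 4.89, 4.17, 6.31 and 4.02 CPM in combination libraries, against 23.1, 11.2, 30 and 7.95 CPM in thio libraries. The groups did not overlap, and thio 4 lay closest to the combination (-1.92 ± 0.35, adjusted p = 0.000314). IFIT2, which binds viral RNA, fell by 1.67 and OAS3, a synthetase that activates RNase L, by 1.35 on the log2 scale (adjusted p = 0.00086 and 0.000612). IRF1, a transcription factor of the interferon response, fell with a log2 change of -1.40 ± 0.27 (adjusted p = 0.00058), which was -0.81 without thio 3. Nucleic acid sensors were near the background of 22.9% lower, with 3 of 12 lower and 1 higher, and 1 was lower without the 3 libraries.

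In the HLA class I list 5 of 16 tested genes fell and 2 rose, with a median of -0.42. The lower count was 3 without thio 3, and without the 3 libraries the 5 lower genes all lost their calls, among them HLA-E (adjusted p = 0.0636) and TAP1 (adjusted p = 0.127). HLA-E, a class I molecule read by NK cells, had 153, 101, 106, 154 and 104 CPM in combination and 270, 183, 468 and 175 CPM in thio libraries (-1.15 ± 0.25, adjusted p = 0.00115), and its reads may be split with other class I genes. The peptide transporter TAP1 fell by 0.82, whereas the class I activator NLRC5 rose by 0.72 (adjusted p = 0.011) and the peptide trimmer ERAP2 by 0.81 (adjusted p = 0.00313, or 0.112 without the 3 libraries). Complement genes fell in 7 of 14 and rose in 1, with a median of -0.87 and 7 lower without the 3 libraries. C3, the central complement component, had 314, 121, 104, 139 and 125 CPM in combination libraries, against 1330, 573, 2500 and 1200 CPM in thio libraries (-3.13 ± 0.40, adjusted p = 3.55e-05). Combination 1 was the highest of its group but stayed below thio 2, the lowest thio library. The alternative pathway protease CFB fell by 3.00 and the classical pathway protease C1R by 2.24 (adjusted p = 0.000109 and 0.000183). CD55, a surface inhibitor of complement, had 41.5, 34.6, 37.2, 36.9 and 32.8 CPM in combination and 96.5, 47.2, 357 and 52.6 CPM in thio libraries, and its log2 fold change of -1.92 ± 0.38 (adjusted p = 0.00068) was -0.85 without thio 3. CFI, the protease that inactivates C3b, was the complement gene that rose (1.35 ± 0.34, adjusted p = 0.00385), and it was not called without the 3 libraries (adjusted p = 0.12).

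Squamous differentiation genes, the keratin, envelope and desmosome programme of stratified epithelia, fell in 16 of 21 tested members and rose in 3, with a median of -1.76. Without the 3 libraries 14 were lower and 2 higher, and with the mitochondrial percent as a covariate 1 was lower and 1 higher. KRT6A, a keratin of injured and hyperproliferative epithelium, had 7.77, 2.44, 1.51, 2.22 and 5.97 CPM in combination libraries, against 116, 30.7, 30.9 and 75.7 CPM in thio libraries (-4.00 ± 0.68, adjusted p = 0.000197). All combination libraries lay below all thio libraries. KRT14, a basal keratin, had 0.424 to 1.02 CPM in combination and 4.29 to 31.3 CPM in thio libraries (-4.19 ± 0.66, adjusted p = 0.000112). Reads of both keratins may be shared with close paralogues. PI3, an elastase inhibitor of inflamed epithelium, had 5.33, 3.01, 0.676, 4.55 and 3.71 CPM in combination libraries, against 153, 12, 403 and 116 CPM in thio libraries, and was 49.2-fold lower in the combination (adjusted p = 2.02e-05). KLK5, a serine protease that cleaves desmosomes in the skin, went the other way with 2.23, 1.46, 3.46, 3.32 and 1.82 CPM in combination and 0.323, 0.504, 0.221 and 0.491 CPM in thio libraries, at low counts (2.65 ± 0.44, adjusted p = 0.000162).

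S100 proteins, small calcium-binding proteins, split in both directions. Of 13 tested, 4 fell and 4 rose, with a median of -0.17. S100A9, which pairs with S100A8 as calprotectin, had 6.25, 8.79, 0.914, 5.15 and 5.22 CPM in combination libraries, against 238, 58, 147 and 165 CPM in thio libraries (-4.86 ± 0.45, adjusted p = 4.35e-06). S100A8 had 0.53, 0.235, 0.0398, 0.811 and 1.45 CPM in combination and 26.7, 3.64, 13.2 and 36.2 CPM in thio libraries (-5.09 ± 0.81, adjusted p = 0.000123), and in both genes the groups did not overlap. Both genes are also neutrophil markers. The neutrophil list of 11 genes summed to 3.30 to 11.0 CPM in combination libraries and to 62.5 to 267 CPM in thio libraries. S100A8 and S100A9 were the main part of the sum in every thio library, but not in combination 3, which had the sum of 3.30 CPM. The neutrophil receptor CSF3R reached at most 2.64 CPM and the leukocyte marker PTPRC at most 0.797 CPM in any of the 9 libraries. S100P also fell (-2.11 ± 0.42, adjusted p = 0.000721). S100A10, an annexin partner, rose with 754, 920, 936, 956 and 836 CPM in combination and 533, 628, 564 and 574 CPM in thio libraries (0.62 ± 0.14, adjusted p = 0.00151). S100A11 rose by 0.86 and S100A6 by 0.79 on the log2 scale (adjusted p = 0.00161 and 0.00604), and S100A6 lost its call without the 3 libraries (adjusted p = 0.0572).

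The drug target, its ligands and its feedback genes were lower in part. EGFR, which osimertinib inhibits as a protein, had 4590, 3600, 3260, 3380 and 3050 CPM in combination libraries, against 5360, 5160, 8140 and 6040 CPM in thio libraries (-0.79 ± 0.18, adjusted p = 0.00216). All thio libraries lay above all combination libraries, but without the 3 libraries EGFR was not called (adjusted p = 0.0673). In the list of ERBB receptors and ligands 4 of 12 fell and 2 rose (median -0.16), but 2 fell and 4 rose with upper-quartile scaling, and the lower count was 2 without combination 3 or without thio 4. All 4 lower genes lost their calls without the 3 libraries. ERRFI1, a feedback inhibitor of EGFR, fell by 1.12 (adjusted p = 0.00117, or 0.0634 without the 3 libraries). The ligands TGFA (-0.62 ± 0.21, adjusted p = 0.0204) and AREG (-0.51 ± 0.20, adjusted p = 0.0418) were lower in overlapping groups, and without the 3 libraries their adjusted p was 0.103 and 0.137. The TGFA call was lost without combination 3 (adjusted p = 0.0521) or thio 4 (adjusted p = 0.0862), and AREG was at -0.30 without thio 4 (adjusted p = 0.234). AREG also lost its call without combination 2, combination 3, combination 5 or thio 1, with adjusted p of 0.0526 to 0.102. LRIG1, a membrane protein that promotes EGFR breakdown, rose at low counts, with 1.48, 1.18, 1.31, 1.02 and 2.39 CPM in combination and 0.323, 0.252, 0.398 and 0.173 CPM in thio libraries (adjusted p = 0.00409).

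ERK output and feedback genes fell in 10 of 18 and rose in 1, with a median of -0.53. The lower count was 5 without combination 3 or without combination 5, 5 with upper-quartile scaling and 3 without the 3 libraries. DUSP6, a phosphatase that switches off ERK, had 58.8, 50.3, 43.3, 47.4 and 38.7 CPM in combination libraries, against 90.4, 79.7, 53.2 and 71.2 CPM in thio libraries. The groups overlapped at combination 1 and thio 3, and the log2 fold change of -0.63 ± 0.23 (adjusted p = 0.0332) was not called without combination 3, combination 4, combination 5, thio 1 or thio 2 (adjusted p = 0.053 to 0.103) or without the 3 libraries (adjusted p = 0.109). ETV5, a transcription factor induced by ERK, had 17.4, 15.3, 10.2, 12.7 and 10.2 CPM in combination and 27.6, 27, 23.6 and 28.5 CPM in thio libraries (-1.02 ± 0.19, adjusted p = 0.000504). The RAS inhibitor SPRED1 fell by 0.92 (adjusted p = 0.000868), and the ERK phosphatase DUSP5 by 1.92 (adjusted p = 0.000367). FOSL1, an AP-1 subunit stabilised by ERK, was the member that rose, with 254, 362, 288, 303 and 269 CPM in combination libraries, against 106, 139, 75.8 and 138 CPM in thio libraries (1.36 ± 0.30, adjusted p = 0.00138). Its combination values were all above its thio values.

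Other AP-1 and immediate early factors fell in 10 of 16, with FOSL1 again the one that rose (median -0.88, with 6 lower without thio 3 and 4 without the 3 libraries). ATF3, a stress-induced repressor, had 19.6, 18.3, 11.3, 15.2 and 23.4 CPM in combination and 102, 36.1, 191 and 38.7 CPM in thio libraries (-2.39 ± 0.40, adjusted p = 0.000193). MAFF, a small Maf protein, fell by 1.67, FOSL2 by 1.21 and JUNB by 0.83 on the log2 scale (adjusted p = 0.000147, 0.000262 and 0.000434). Of 14 receptor tyrosine kinases that can stand in for EGFR, 2 fell, 1 rose and 11 were not called, and 1 fell and 1 rose without the 3 libraries. ROR1, a Wnt5a receptor, rose with 22.5, 33.8, 34, 32.1 and 32.8 CPM in combination and 15.1, 23, 11.8 and 14.2 CPM in thio libraries (0.95 ± 0.18, adjusted p = 0.000487), and the groups overlapped at combination 1 and thio 2. The collagen receptor DDR1 fell by 0.48 (adjusted p = 0.00887, or 0.0585 without the 3 libraries). AXL, a receptor linked to resistance to EGFR inhibitors, had 9.47, 15.9, 9.82, 14.3 and 13.2 CPM in combination libraries, against 10, 7.75, 8.9 and 12.6 CPM in thio libraries, and did not pass the test (0.35 ± 0.33, adjusted p = 0.405).

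Hypoxia and glycolysis genes fell nearly throughout, and with the mitochondrial percent as a covariate 1 gene of each list was called lower. Of 20 tested targets of the hypoxia-inducible factor 18 were lower, with a median of -1.66 and 15 lower without the 3 libraries, and INSIG2 and CA12 were not called. ADM, a vasodilator peptide, had 10.6, 15.8, 8.39, 5.64 and 9.3 CPM in combination libraries, against 89.4, 31.2, 206 and 52.6 CPM in thio libraries (-3.25 ± 0.44, adjusted p = 4.61e-05). LOX, which crosslinks collagen, had 3.57, 3.86, 2.07, 1.48 and 0.566 CPM in combination and 13.1, 9.73, 61.5 and 21.3 CPM in thio libraries (-3.49 ± 0.48, adjusted p = 4.61e-05). Both genes were highest in thio 3, and their groups did not overlap. The collagen hydroxylase P4HA1 fell by 1.79 (adjusted p = 9.54e-05). HILPDA, a lipid droplet protein, fell by 2.87 (adjusted p = 0.000111), or by 1.82 without thio 3.

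Of 21 glycolysis genes 20 fell and only the glucose transporter SLC2A3 was not called, with a median of -1.33 and 18 lower without the 3 libraries. HK2, the hexokinase that opens glycolysis, had 38.3, 34.8, 19.5, 24.5 and 22.4 CPM in combination libraries, against 202, 90.3, 446 and 111 CPM in thio libraries (-2.92 ± 0.39, adjusted p = 3.83e-05). PGK1, an enzyme that makes ATP in the pathway, had 316, 390, 226, 248 and 142 CPM in combination and 901, 662, 1510 and 895 CPM in thio libraries (-1.90 ± 0.25, adjusted p = 3.83e-05). PFKL, a phosphofructokinase, varied less, with 94.5, 78, 63.5, 78.2 and 60.6 CPM in combination and 174, 144, 255 and 157 CPM in thio libraries (-1.28 ± 0.16, adjusted p = 3.55e-05). In all 3 enzymes every combination library was below every thio library, and combination 5 had the lowest PGK1 and PFKL. The mean log2 CPM of the list was 6.74, 6.72, 6.28, 6.50 and 6.04 in combination libraries 1 to 5, against 7.69, 7.44, 8.30 and 7.61 in thio libraries 1 to 4.

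Enzymes of the TCA cycle, which oxidises acetyl-CoA in the mitochondrion, fell in 14 of 25 and rose in 1, with a median of -0.37. This count was 8 with upper-quartile scaling and 4 without the 3 libraries. DLAT, a subunit of pyruvate dehydrogenase, had 34, 30.5, 28.2, 26.1 and 19.2 CPM in combination libraries, against 53.6, 54.1, 49 and 53.7 CPM in thio libraries (-0.93 ± 0.15, adjusted p = 0.000135). The thio values were close together and all above the combination. ACO1, a cytosolic aconitase that also senses iron, fell by 1.83 (adjusted p = 0.000299), or by 1.21 without thio 3, and the isocitrate dehydrogenase IDH2 by 0.69 (adjusted p = 0.000343). SUCLG2, the GTP-forming subunit of succinyl-CoA ligase named in the series title, had 45.2, 38.2, 33.5, 35.8 and 19.3 CPM in combination libraries, against 51.4, 52.8, 55.9 and 44.9 CPM in thio libraries. The groups overlapped at combination 1 and thio 4. The log2 fold change of SUCLG2 was -0.57 ± 0.18 (adjusted p = 0.0163), and it was not called without the 3 libraries (adjusted p = 0.182) or with upper-quartile scaling (adjusted p = 0.0553).

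All 13 protein-coding genes of the mitochondrial genome rose, with a median of 1.53, and 12 of them were called without the 3 libraries. ND2, a complex I subunit, had 4670, 8390, 9270, 5360 and 16900 CPM in combination libraries, against 2650, 3210, 2510 and 2350 CPM in thio libraries (1.74 ± 0.30, adjusted p = 0.000255). ND3 had 416, 581, 772, 510 and 1340 CPM in combination and 227, 212, 217 and 206 CPM in thio libraries (1.75 ± 0.27, adjusted p = 0.000111). Combination 5 was the highest library for both, and the thio values varied little. ND4L rose by 1.68 and ATP8, a subunit of ATP synthase, by 1.48 on the log2 scale (adjusted p = 0.000136 and 0.000202), though both overlap a neighbouring gene and have nuclear copies, so their reads may be shared. Of the 34 nuclear genes for the same complexes 10 fell and 2 rose (median 0.11), but with upper-quartile scaling 5 fell and 13 rose. Without combination 3 the lower count was 6, and without the 3 libraries it was 3. ATP5F1B, the catalytic subunit of ATP synthase, fell with 188, 195, 136, 192 and 107 CPM in combination and 276, 269, 344 and 293 CPM in thio libraries (-0.85 ± 0.15, adjusted p = 0.000301). COX6C, a subunit of cytochrome oxidase, rose by 0.46 (adjusted p = 0.0088, or 0.0745 without the 3 libraries).

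Many genes of sterol and fatty acid synthesis fell. Of 24 cholesterol synthesis genes 19 were lower and 2 higher, with a median of -0.88 and 16 lower without the 3 libraries. INSIG1, the sterol sensor that holds SREBP in the endoplasmic reticulum, had 29.3, 30.4, 12.5, 22.6 and 12.9 CPM in combination libraries, against 58.7, 65.8, 84 and 50.8 CPM in thio libraries (-1.59 ± 0.26, adjusted p = 0.000136). Combination 3 and combination 5 were the lowest libraries, and the groups did not overlap. The cholesterol carrier STARD4 fell by 1.75 (adjusted p = 5.87e-05). The isomerase EBP was one of the genes that rose (0.58 ± 0.17, adjusted p = 0.00979, or 0.146 without the 3 libraries), the other being TM7SF2. Fatty acid synthesis genes fell in 9 of 17 and rose in 1 (median -0.59, 7 lower without the 3 libraries). SCD, which makes monounsaturated fatty acids, had 124, 149, 52.4, 75.5 and 51.8 CPM in combination and 232, 357, 188 and 248 CPM in thio libraries (-1.50 ± 0.29, adjusted p = 0.000488). Fatty acid synthase, FASN, fell by 1.04 and SREBF1, the transcription factor that drives it, by 0.93 on the log2 scale (adjusted p = 0.000509 and 9.05e-05).

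**Figure D4:**
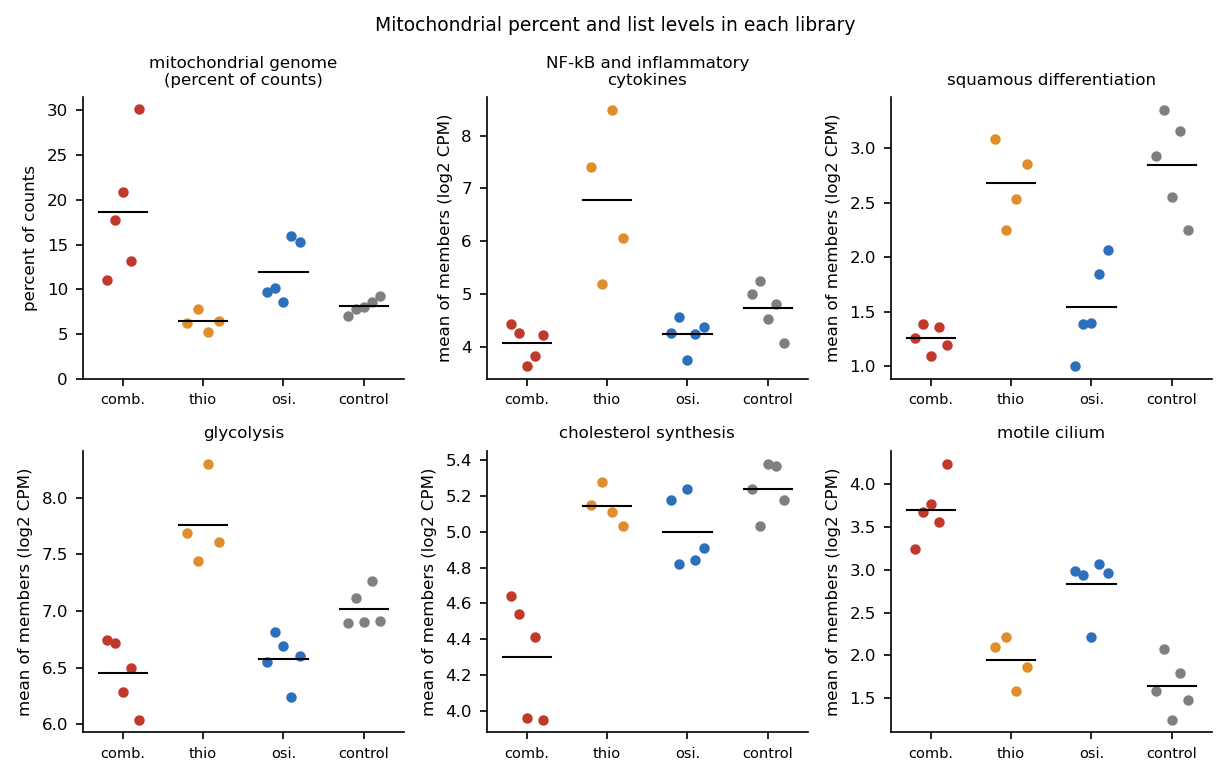
Percent of counts from the mitochondrial genome, and mean log2 CPM of the tested members of 5 gene lists, in each library of the combination, thio, osimertinib and control groups from left to right (points are libraries, bars are group means). The combination libraries lie below the thio libraries for inflammatory cytokines, squamous differentiation, glycolysis and cholesterol synthesis, and above them for mitochondrial percent and motile cilium genes.

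Stress programmes of the endoplasmic reticulum and of amino acid supply fell as well. Unfolded protein response genes were lower in 15 of 21 (median -0.80, 10 lower without the 3 libraries). ERN1, the sensor kinase also called IRE1, had 15.4, 10.8, 9.26, 9.7 and 14.5 CPM in combination libraries, against 47.8, 24, 58 and 28.7 CPM in thio libraries (-1.73 ± 0.24, adjusted p = 5.27e-05). The transcription factor XBP1, whose messenger ERN1 splices, fell by 1.37 (adjusted p = 0.000166), the chaperone DNAJB9 by 1.71 (adjusted p = 5.6e-05) and EDEM1, which marks misfolded proteins for disposal, by 1.19 (adjusted p = 0.000126). Of 21 genes of the ATF4 programme 15 fell and 1 rose (median -0.77, 11 lower without the 3 libraries). TRIB3, a pseudokinase induced by ATF4, had 37.3, 34.3, 20.6, 30.9 and 23.4 CPM in combination and 69.5, 70.8, 99.3 and 79.3 CPM in thio libraries (-1.44 ± 0.19, adjusted p = 3.83e-05). The groups of ERN1 and TRIB3 were apart in every library. CEBPB, a stress and inflammation factor, fell by 1.47, the folate enzyme MTHFD2 by 1.13 and the secreted hormone STC2 by 1.07 (adjusted p = 8.67e-05, 0.000108 and 0.000136). Asparagine synthetase, ASNS, was the ATF4 target that rose (0.74 ± 0.20, adjusted p = 0.00509, or 0.0557 without the 3 libraries).

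NRF2 antioxidant targets were mixed, with 9 of 22 lower and 3 higher (median -0.34, 7 lower and 3 higher without the 3 libraries). TXNRD1, thioredoxin reductase, had 92.9, 81.4, 63.5, 75.9 and 45.4 CPM in combination libraries, against 261, 163, 503 and 160 CPM in thio libraries (-1.92 ± 0.28, adjusted p = 7.49e-05). ABCC2, an efflux pump for conjugated compounds, rose with 62.1, 64.3, 62.5, 60.9 and 78.5 CPM in combination and 32.3, 42.2, 10.1 and 22.8 CPM in thio libraries (1.29 ± 0.28, adjusted p = 0.00131). Autophagy and lysosome genes fell in 14 of 23 and rose in 1 (median -0.58, 7 lower without the 3 libraries). TFEB, the main transcription factor of lysosome genes, had 0.777, 1.22, 0.676, 0.882 and 1.01 CPM in combination and 3.52, 2.49, 3.76 and 2.89 CPM in thio libraries (-1.80 ± 0.29, adjusted p = 0.000134). ATG9A, a lipid-moving membrane protein of autophagy, fell by 1.62 and BECN1, a subunit of the autophagy lipid kinase, by 0.58 (adjusted p = 4.69e-05 and 0.000582). ATG9B, a relative of ATG9A, was the member that rose, with 61.2, 81.8, 135, 107 and 304 CPM in combination libraries, against 12.8, 15.3, 17 and 11.5 CPM in thio libraries (3.28 ± 0.42, adjusted p = 3.55e-05). ATG9B overlaps NOS3 on the opposite strand, and the kit does not mark strand, so its reads cannot be assigned to one gene. Heat shock chaperones were 6 lower and 1 higher of 18, but 3 lower and 4 higher with upper-quartile scaling. The lower count was 2 without combination 3, and all 6 lost their calls without the 3 libraries. Proteasome subunits were lower in 9 of 27, but 3 were lower and 4 higher with upper-quartile scaling, and 3 were lower without the 3 libraries.

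Cell cycle genes were called in part. Of 35 DNA replication and G1/S genes 11 fell (31.4%, against 22.9% of all genes, median -0.31). The list's mean log2 CPM ran from 4.06 in combination 5 to 5.21 in thio 2. Among all genes with a mean log2 CPM above 4 and up to 6, 30.9% were lower, near the share of the list. The lower count was 7 without combination 3, 6 without thio 2, 6 with upper-quartile scaling and 3 without the 3 libraries. MCM2, a subunit of the replicative helicase, had 45.8, 33.7, 18.9, 32.6 and 16 CPM in combination libraries, against 68.4, 76.7, 54.3 and 65.3 CPM in thio libraries (-1.17 ± 0.26, adjusted p = 0.00161). Every combination value was below every thio value. Cyclin E1, CCNE1, fell by 0.58 (adjusted p = 0.00938, or 0.0675 without the 3 libraries). Of 28 mitosis genes 4 rose (median -0.03), among them the kinetochore protein NDC80 (0.65 ± 0.16, adjusted p = 0.00292) and the kinesin KIF20A (0.59 ± 0.17, adjusted p = 0.00798). This count was 9 with upper-quartile scaling and 2 without combination 2, combination 5 or thio 4. The proliferation marker MKI67 had 275, 302, 184, 231 and 191 CPM in combination and 304, 383, 259 and 235 CPM in thio libraries, overlapped between the groups and did not pass the test (-0.32 ± 0.22, adjusted p = 0.25, or -0.18 without thio 2). DNA repair genes were 8 lower and 5 higher of 29, but 2 lower and 10 higher with upper-quartile scaling, and without the 3 libraries 1 was lower and 1 higher. Without thio 3 the higher count was 2, and the lower count was 4 without combination 3 and 5 without combination 5, thio 1 or thio 2.

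Targets of p53 fell in 10 of 24 (median -0.33, 6 lower without the 3 libraries). CDKN1A, the cell cycle inhibitor p21, had 11.7, 9.64, 5.61, 8.99 and 7.04 CPM in combination libraries, against 31, 16.6, 54.4 and 44.1 CPM in thio libraries (-2.08 ± 0.27, adjusted p = 3.82e-05). No combination library reached the lowest thio library, thio 2. MDM2, the ubiquitin ligase of p53, fell by 1.00 and SESN2, a stress regulator of growth signalling, by 1.28 (adjusted p = 0.00049 and 0.00028). BBC3, the death promoter PUMA, had 7.1, 4.84, 5.41, 5.22 and 7.79 CPM in combination and 46, 8.72, 100 and 14.1 CPM in thio libraries (-2.80 ± 0.47, adjusted p = 0.000191). In the BCL2 family, which governs mitochondrial cell death, 7 of 16 fell and 9 were not called (median -0.39, 3 lower without the 3 libraries), on both the death-promoting and the protective side. The protective member BCL2A1, an NF-kB target, had 1.27, 0.893, 0.636, 0.635 and 1.38 CPM in combination libraries, against 23.3, 3.28, 90.8 and 6.18 CPM in thio libraries (-5.01 ± 0.77, adjusted p = 9.86e-05). The pore former BAK1 had 7.63, 3.9, 4.17, 6.35 and 2.95 CPM in combination and 11.1, 9.04, 11 and 11.2 CPM in thio libraries (-1.07 ± 0.20, adjusted p = 0.000503).

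Few telomere genes were called. TERT, the catalytic subunit of telomerase, had 6, 14, 6, 11 and 11 counts in combination libraries, against 2, 3, 0 and 2 counts in thio libraries. All combination values were above all thio values, and a count of 0 in thio 3 allows up to 0.133 CPM. The log2 fold change of TERT was 2.75 ± 0.77 (adjusted p = 0.00705), and it was not called without the 3 libraries (adjusted p = 0.0565). In the list of telomerase and shelterin genes 1 of 15 rose and 4 fell (median -0.09), a lower share near the 22.9% of all genes. The lower count was 2 with upper-quartile scaling and 1 without the 3 libraries. The shelterin subunit TINF2 fell by 0.65 (adjusted p = 0.00414, or 0.0997 without the 3 libraries) and the helicase RTEL1 by 0.68 (adjusted p = 0.0111). TERF2, which holds the telomere loop, fell with a log2 change of -0.45 ± 0.15 (adjusted p = 0.019) and lost its call without combination 3 (adjusted p = 0.0537) or thio 4 (adjusted p = 0.051) and without the 3 libraries (adjusted p = 0.189).

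Of 23 genes of purine and thiopurine handling 10 fell and 1 rose (median -0.34), with 6 lower without combination 3, 6 with upper-quartile scaling and 4 without the 3 libraries. XDH, the oxidase that degrades purines to urate, had 23.5, 25.7, 21.3, 24.4 and 35.3 CPM in combination libraries, against 181, 46.2, 381 and 111 CPM in thio libraries (-2.79 ± 0.38, adjusted p = 4.05e-05). IMPDH2, which opens guanine nucleotide synthesis, had 130, 131, 80.1, 110 and 70.4 CPM in combination and 169, 188, 197 and 183 CPM in thio libraries (-0.82 ± 0.18, adjusted p = 0.00133). Both genes were lower in every combination library. HPRT1, which salvages guanine and thioguanine, fell by 0.58 (adjusted p = 0.00572, or 0.0511 without the 3 libraries). The nucleoside transporter SLC29A1 fell by 0.60 (adjusted p = 0.00666) and the nucleotide exporter ABCC5 rose by 0.61 (adjusted p = 0.00459).

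Genes of motile cilia, the beating cell protrusions of airway epithelium, had the highest share of risen members among the lists outside the mitochondrial genome. Of 17 tested, 13 were higher and did not overlap between the groups (median 1.80, 12 higher without the 3 libraries), and DNAH5, DNAH9, DNAH11 and RSPH1 were not called. TTLL9, which adds glutamate to ciliary tubulin, had 10.6, 13.4, 21.1, 13.1 and 30.9 CPM in combination libraries, against 1.74, 1.95, 0.93 and 1.21 CPM in thio libraries, 12.1-fold higher in the combination (3.60 ± 0.34, adjusted p = 4.35e-06). CCDC40, needed to assemble the inner dynein arms, had 46.2, 62.3, 71.9, 58.7 and 89.6 CPM in combination and 21.5, 26.6, 12.4 and 22.7 CPM in thio libraries (1.65 ± 0.22, adjusted p = 3.86e-05). In both genes combination 5 was the highest and thio 3 the lowest of the 9 libraries. The ciliary proteins CFAP53 and CFAP43 rose by 2.02 (adjusted p = 4.36e-05) and 1.80 (adjusted p = 2.79e-05). Outside the list ODAD1, which docks the outer dynein arms, rose by 3.05 (adjusted p = 8.88e-06). The mean log2 CPM of the cilium list was 3.24, 3.68, 3.77, 3.56 and 4.24 in combination libraries 1 to 5, against 2.10, 2.22, 1.58 and 1.87 in thio libraries 1 to 4. With the mitochondrial percent as a covariate 6 of the 17 were called higher.

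Alveolar differentiation genes rose in 5 of 15 and fell in 2 (median 0.43), with 3 higher without thio 4 or without the 3 libraries. NKX2-1, the transcription factor of lung epithelial identity, had 50.9, 78.1, 87.7, 63.8 and 129 CPM in combination libraries, against 19.7, 27.9, 11.4 and 7.31 CPM in thio libraries (2.30 ± 0.33, adjusted p = 7.05e-05). AGER, a receptor abundant in flat alveolar cells, had 13.9, 19.3, 21.7, 19.2 and 36.2 CPM in combination and 8.87, 9.19, 6.86 and 10.2 CPM in thio libraries (1.32 ± 0.28, adjusted p = 0.000961). In both genes the groups were apart and combination 5 was highest. The water channel AQP5 rose at low counts (2.08 to 4.08 CPM in combination and 0.0578 to 0.484 CPM in thio libraries, adjusted p = 0.000231). LAMP3, a protein of surfactant bodies that interferon also induces, fell by 2.50 (adjusted p = 0.00101, or 0.0508 without the 3 libraries).

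Drug-metabolising cytochrome P450 and UGT genes were 6 higher and 3 lower of 15 (median 0.17), with 3 higher without thio 3 or without thio 4, 1 lower without thio 3, and 3 higher and 1 lower without the 3 libraries. CYP24A1, which degrades active vitamin D, had 3.64, 3.9, 1.71, 2.43 and 2.64 CPM in combination libraries, against 36.5, 15, 124 and 28.3 CPM in thio libraries (-4.15 ± 0.47, adjusted p = 1.79e-05). Outside that list CYP4B1, a P450 of the lung, had the largest rise among the named genes, with 25.5, 12.3, 8.27, 12.4 and 21.2 CPM in combination and 1.32, 1.08, 0.398 and 0.838 CPM in thio libraries (4.10 ± 0.62, adjusted p = 8.65e-05). Other genes with large rises were the potassium channel KCNJ13 (2.57 ± 0.39), the mitochondrial cochaperone DNAJC15 (2.83 ± 0.49), the scaffold PDZK1 of membrane transporters (2.56 ± 0.44) and BIRC7, an inhibitor of apoptosis (2.33 ± 0.34, adjusted p at most 0.000247 in these 4). Among the largest falls were the amino acid transporter SLC6A14, with 7.38, 5.83, 3.74, 6.03 and 7.67 CPM in combination and 336, 32.2, 634 and 84.6 CPM in thio libraries (adjusted p = 3.82e-05), and the chitinase-like protein CHI3L2 (-4.38 ± 0.58, adjusted p = 3.83e-05). The groups did not overlap in any of these genes.

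Matrix and adhesion genes fell in part. In the mesenchymal transition list 7 of 17 fell and 1 rose (median -0.50, 4 lower without the 3 libraries). Fibronectin, FN1, had 704, 349, 243, 438 and 228 CPM in combination libraries, against 1200, 1120, 1700 and 1260 CPM in thio libraries (-1.75 ± 0.27, adjusted p = 9.84e-05). The matrix protein TNC fell by 1.29 and the fibronectin receptor subunit ITGA5 by 1.26 on the log2 scale (adjusted p = 0.000105 and 9.89e-05). ZEB2, a repressor of epithelial genes, fell by 1.16 (adjusted p = 0.00157), or by 0.68 without thio 3, and was not called without the 3 libraries (adjusted p = 0.0605). COL1A1, the fibroblast collagen, rose with 393, 310, 481, 678 and 325 CPM in combination and 204, 268, 195 and 194 CPM in thio libraries (1.02 ± 0.24, adjusted p = 0.00226). Of 17 tested fibroblast markers 2 rose and 1 fell, and the part of host or stromal cells in COL1A1 was not tested. TNNI2, a skeletal muscle troponin, had 62.3, 113, 171, 103 and 260 CPM in combination and 59.4, 50.1, 28.9 and 51.5 CPM in thio libraries (1.58 ± 0.35, adjusted p = 0.0015, or 0.0844 without the 3 libraries). Matrix metalloproteinases and their regulators fell in 9 of 15 (median -0.80, 2 lower without the 3 libraries). The collagenase MMP1 had 8.79, 4.37, 1.47, 4.8 and 4.84 CPM in combination libraries, against 62.3, 30.6, 23 and 153 CPM in thio libraries (-3.79 ± 0.67, adjusted p = 0.000266). MMP7 fell by 1.94 (adjusted p = 0.000177) and PLAUR, the urokinase receptor, by 1.33 (adjusted p = 0.000845), or by 0.85 without thio 3, and was not called without the 3 libraries (adjusted p = 0.0505).

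The remaining lists gave mixed counts. Replication-dependent histones were 6 higher and 1 lower of 14 (median 0.78), and the count of higher genes was 2 to 3 without combination 4, thio 1, thio 2, thio 3, thio 4 or control 1, and 2 without the 3 libraries. Poly-A selection captures these messengers poorly. Tight junction genes were 4 lower and 1 higher of 15 (2 lower without thio 1 or with upper-quartile scaling, 1 lower without the 3 libraries). Mucins were 5 lower and 3 higher of 12, with 1 higher without combination 5, thio 1, thio 3 or thio 4. Without the 3 libraries 3 mucins were lower and the higher ones lost their calls. Targets of YAP and TEAD, the transcription regulators of the Hippo pathway, were lower in 7 of 19, with 4 without thio 3 and 2 without the 3 libraries. Cytosolic ribosomal proteins were lower in 6 of 38, with 2 without thio 3 or with upper-quartile scaling, and all 6 lost their calls without the 3 libraries.

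The effect of osimertinib in the absence of 6-thio-dG, osimertinib against control, was set beside the effect under 6-thio-dG. These 2 comparisons share no library. Osimertinib alone gave 451 higher (2.7%) and 244 lower (1.46%) genes, against 3549 and 3829 under 6-thio-dG. Without the 3 libraries the effect under 6-thio-dG had 3311 calls and that of osimertinib alone 1154, and with the mitochondrial percent as a covariate the order turned, with 191 calls under 6-thio-dG and 322 under osimertinib alone. The number of calls under osimertinib alone ranged from 217 (without osimertinib 4) to 910 (without thio 3) when 1 library was left out. It was 249 without control 3, 303 without control 4, 321 without osimertinib 2, 401 without osimertinib 1 and 415 without osimertinib 5. Of the 695 genes called under osimertinib alone, 422 were called in the same direction under 6-thio-dG, 254 higher and 168 lower, and 1 in the opposite one. That is 60.7% of the osimertinib list and 5.72% of the combination list. Across the 16704 genes the log2 fold changes of the 2 comparisons had a Pearson correlation of 0.51, as a description, since genes are not independent replicates.

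The difference between the 2 effects was tested as an interaction, the combination minus thio difference less the osimertinib minus control difference. It was called positive in 207 genes (1.24%) and negative in 369 (2.21%), and 359 of the negative ones were lower in the combination than in thio. The smallest adjusted p was 0.0265, and this count rested on single libraries. It was 668 without thio 4, and every other omission of 1 library moved it by over 1.5 times. No gene was called by edgeR without combination 3 (3810 genes at an unadjusted p under 0.05), combination 5 (3746), thio 1 (3907), osimertinib 2 (3708) or control 3 (3893), nor without the 3 libraries (2293). The count was 3 without thio 3, 59 without osimertinib 1, 61 without combination 4, 88 without control 5, 118 without combination 2, 178 without control 4, 192 without osimertinib 3 and 383 without control 1. It was 926 without osimertinib 4, 930 without control 2, 1072 without thio 2, 1100 without osimertinib 5 and 2157 without combination 1. With all libraries DESeq2 called 1757 genes and limma voom 2802. In the inflammatory list 17 of 23 genes had a negative call. CXCL1 had an interaction of -3.36 ± 0.67 (adjusted p = 0.0265), with 43.2 to 84.5 CPM in combination, 209 to 3090 in thio, 43.1 to 117 in osimertinib and 84.5 to 233 in control libraries. Under osimertinib alone its log2 fold change was -1.10 and did not pass the test (adjusted p = 0.178). Thio 1, thio 3 and thio 4 lay above every library of the other 3 groups, and thio 2 lay within the range of the control libraries. SLC6A14 (-4.49 ± 0.89), STARD4 (-1.81 ± 0.34) and TXNRD1 (-1.94 ± 0.38) shared the adjusted p of 0.0265. DNAJC15 (2.86 ± 0.64, adjusted p = 0.0324) and BIRC7 (1.99 ± 0.44, adjusted p = 0.0324) were among the positive calls, with log2 fold changes under osimertinib alone of -0.03 and 0.34.

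Several genes changed under osimertinib both with and without 6-thio-dG, and the difference between the effects was not called for them. KRT6A had log2 fold changes of -4.00 under 6-thio-dG and -5.05 without it (interaction 1.05 ± 0.88, adjusted p = 0.446). The squamous list as a whole had 9 of 21 members lower and 1 higher under osimertinib alone. KCNJ13 had 2.57 and 2.48 (interaction 0.09 ± 0.50, adjusted p = 0.926), AQP5 3.71 and 3.25 (0.45 ± 0.86, adjusted p = 0.762), and MMP1 -3.79 and -2.95 (-0.83 ± 0.85, adjusted p = 0.543). With these standard errors a difference of 1 on the log2 scale could be missed. For EGFR the interaction was -0.71 ± 0.25 (adjusted p = 0.0947) and for DUSP6 -0.46 ± 0.32 (adjusted p = 0.358), neither of which passed the test. Of the 13 cilium genes that rose under 6-thio-dG, TTLL9 (3.60 against 2.01 without it, interaction adjusted p = 0.0488) and CFAP53 (2.02 against 0.33, interaction adjusted p = 0.0287) had a larger rise under 6-thio-dG by the test of the difference, which is subject to the same dependence on single libraries.

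**Figure D5:**
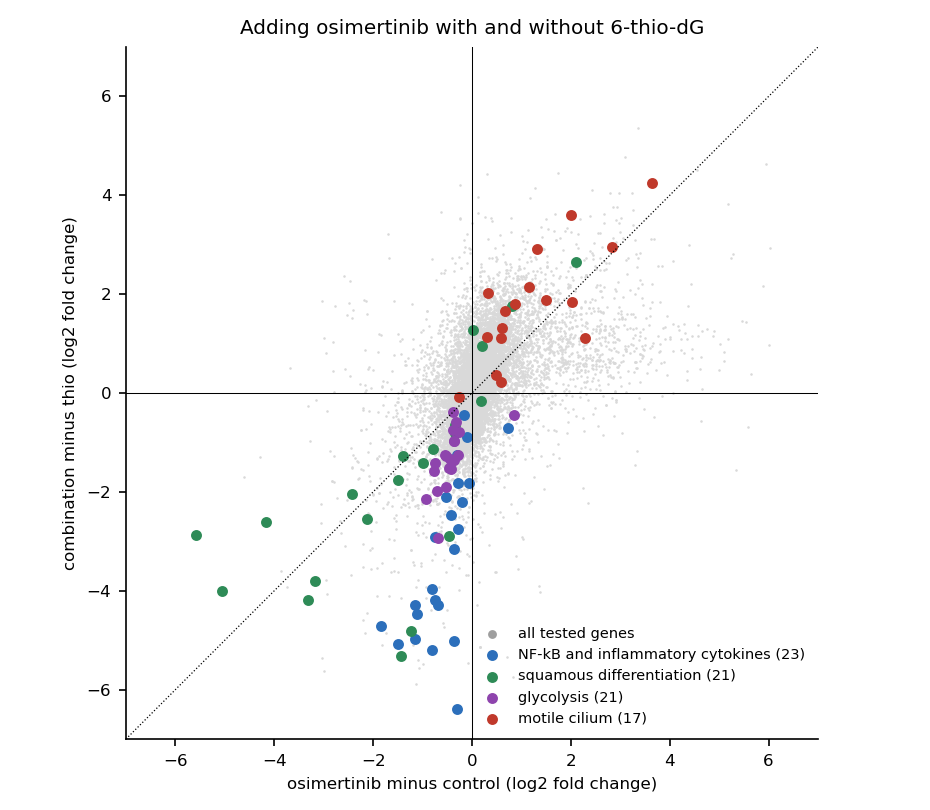
Log2 fold change of the combination over thio (vertical axis) against that of osimertinib over control (horizontal axis) for the tested genes (grey, 1 of them outside the axes), with members of 4 gene lists in colour and the dotted line marking equal effects. The inflammatory genes, such as CXCL1 at -4.47 and -1.10, lie below that line, whereas squamous genes lie on both sides of it.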

How the data were processed

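RNA of xenograft tumours was sequenced in 19 poly-A libraries with a kit that does not mark strand, per the labels' protocols. The deposited values are raw counts per gene symbol, which the authors made from the reads after FastQC, Trimmomatic and STAR on hg38, per the submitters' processing notes. The sources used here do not give versions, the counter, the annotation or how mouse reads were treated. All count columns matched a library by name, and 0 columns were set aside.

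Of 31276 symbols 16704 passed edgeR's filterByExpr (minimum count 10, minimum total 15), and they held at least 99.8% of each library's counts. Among them 322 symbols share identical counts with another symbol. Group means of all 19 libraries were fitted with edgeR 4.0.16 (TMM scaling, quasi-likelihood F test, Benjamini-Hochberg adjustment over all tested genes, threshold 0.05) in R 4.3.3. CPM used TMM-scaled library sizes, log2 CPM a prior count of 2, and the SE is the size of the log2 fold change divided by the square root of F. Total counts were 17731752 to 35397346 per library. A floor of 3 counts stood at 0.0867 to 0.189 CPM in the 9 libraries and covers counting error only.

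The comparison and the 50 lists (962 genes, 941 in the table) were chosen with earlier results of these data known. Named genes are a subset of those given by a rule: the 15 largest called, non-overlapping changes in each direction at a mean log2 CPM of at least 2, up to 4 called members per list and direction, 5 interaction genes in each direction, and AXL, CDKN1A, DUSP6, EGFR, MKI67, SUCLG2 and TERT. Alternatives were DESeq2 1.42.0, limma voom 3.58.1 with quality weights, scaling by RLE or by the upper quartile, all genes unfiltered, a filter that asks for 1 CPM in 4 libraries, removal of mitochondrial genes, the mitochondrial percent as a covariate, a fit of the 2 groups alone, each library left out, and combination 3, combination 5 and thio 3 left out. The scripts were tested on simulated data. Figures were drawn with matplotlib 3.10.9 in Python 3.11.15.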

Additional observations from a re-analysis of the deposited data

Results flagged for a closer look

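Single libraries stood away from the rest of their group in 12 of 264 groups of values examined, where the gap to the next library took up most of the group's range. Chance gives about 1 in 20 groups. Combination 3 was low for PTGS2 (3.06 CPM), PI3 (0.676 CPM) and S100A9 (0.914 CPM). Combination 1 was high for C3 (314 CPM) and C1R (47.6 CPM) and low for ROR1 (22.5 CPM). Combination 5 was high for ABCC2 (78.5 CPM) and CFAP53 (20.6 CPM). Among thio libraries, thio 2 was low for BAK1 (9.04 CPM) and high for COL1A1 (268 CPM), and thio 3 was low for DLAT (49.0 CPM) and high for ZEB2 (56.5 CPM).

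The effect of osimertinib under 6-thio-dG differed from its effect without 6-thio-dG, by the interaction test of edgeR with Benjamini-Hochberg adjustment, in 41 of the 131 genes named in the text. Over all 16704 tested genes 1.24% were called positive and 2.21% negative. The named genes were chosen partly by this test and largely by the combination against thio, so a larger share among them was built in. The values are log2 differences, the effect under 6-thio-dG minus the effect without it. Cytokine, chemokine, prostaglandin synthesis, complement and S100 genes were CXCL8 (-3.82), CXCL1 (-3.36), CXCL5 (-3.13), CCL20 (-4.37), IL1A (-3.59), IL1B (-3.44), PTGS2 (-4.77), CFB (-2.67), CD55 (-1.92) and S100A9 (-2.69). Hypoxia and glycolysis genes were ADM (-2.51), LOX (-2.46), HILPDA (-2.75), HK2 (-2.25) and PGK1 (-1.38). Genes of lipid supply were STARD4 (-1.81), INSIG1 (-1.49) and SREBF1 (-0.72), and those of EGFR feedback and early response ERRFI1 (-1.21), DUSP5 (-1.88) and MAFF (-1.61). Genes of cell death, purine breakdown and mitochondrial or iron metabolism were BBC3 (-2.56), BCL2A1 (-4.57), XDH (-2.16), DLAT (-0.78) and ACO1 (-1.71). Stress genes were ERN1 (-1.34), DNAJB9 (-1.40), TRIB3 (-0.96) and TXNRD1 (-1.94), and matrix, transport and other genes TNC (-1.10), PLAUR (-1.55), CYP24A1 (-2.70), SLC6A14 (-4.49) and CHI3L2 (-3.87). The effect under 6-thio-dG was the higher one in TTLL9 (1.59), CFAP53 (1.69), ODAD1 (1.94), DNAJC15 (2.86), BIRC7 (1.99) and TNNI2 (2.06). TNNI2 is a skeletal muscle marker. The muscle markers summed to 1100 CPM in control 1 and 1080 CPM in control 3, against 92.1 to 301 CPM in the other control libraries. The median interaction over the 15 tested muscle markers was 3.73. All these interaction calls are lost when certain single libraries are left out, as the counts beside the interaction in the report show, and no explanation of them was tested.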

How the results depend on the processing

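For the combination against thio, 7378 genes were called. The count stayed between 6184 and 8559 under other scalings, filters, tools, a fit of the 2 groups alone and the omission of any 1 library, was 3311 without combination 3, combination 5 and thio 3, and was 191 with the mitochondrial percent as a covariate. For osimertinib against control the count was 695 with all libraries, 1154 without the 3 libraries, 322 with the covariate, 451 with the 2 groups alone, 1201 with DESeq2, 1528 with limma voom and 217 to 910 when 1 library was left out. The interaction gave 576 calls with edgeR, 1757 with DESeq2, 2802 with limma voom and 0 to 2157 when 1 library was left out. Without the 3 libraries and with the covariate edgeR gave 0 calls, with 2293 and 2168 genes at an unadjusted p under 0.05. The interaction cannot be fitted in 2 groups alone. The difference in mitochondrial percent was 7.16 without the 3 libraries (exact permutation p = 0.1, the smallest possible there), and the choice of these libraries was bound to narrow it. With the covariate the log2 fold changes of TGFA (0.05), TERF2 (0.07) and SUCLG2 (0.12) turned positive, and 29 of the 129 named genes that were called kept their call. Of these 129, only AREG, DUSP6, TERF2 and TGFA lost their call in an omission of 1 library, and 105 were called without the 3 libraries. Of all 7378 calls, 5128 were kept in every omission of 1 library and 3267 without the 3 libraries. Most named genes were chosen for a large change or a small p in this same comparison, so they keep their calls more often. With upper-quartile scaling AREG, CCNE1, DDR1, DUSP6, SUCLG2, TERF2 and TGFA lost their calls. The cause was not tested. Counts of list members under each alternative were added after seeing the data. No paired analysis was possible because replicate numbers follow accession order and pair nothing. Few libraries and the wide spread among thio libraries limit precision, and genes near the count floor have uncertain folds.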
